A study of Mus musculus with 3 samples.

Results

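Transcript levels of BCL-2 family genes were described in 3 RNA sequencing libraries of mouse Th1 (T helper 1) cells, a CD4 lineage defined by its secretion of interferon gamma. The 10 genes were chosen by name and matched by symbol among 50600 genes of the deposited tables: the anti-apoptotic genes Bcl2, Bcl2l1 and Mcl1, the effector genes Bax and Bak1, and the BH3-only genes Bcl2l11, Bid, Bad, Bbc3 and Pmaip1. All 3 libraries are of 1 group, primary Th1 cells of strain C57BL/6NJ, taken at 48 h according to the file headers, whose run name also mentions Th2 cells and a time course. Per the labels, the age of the mice is unknown and their sex was not recorded. Biological replicate numbers 1, 2 and 3 come from the labels, which give all libraries 1 donor identifier. No label says that the libraries are of separate animals or cultures, so a p-value over them measures the spread between these samples alone, which may be technical. With no other group to set them against, the comparisons were between genes within each library and between the libraries.

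The family controls the mitochondrial route to apoptosis. Anti-apoptotic members hold the effectors Bax and Bak1 in check at the outer mitochondrial membrane, and the BH3-only proteins bind anti-apoptotic members, effectors or both and tip the balance towards pore formation, release of cytochrome c and caspase activation. In T cells, activation is known to raise Bcl2l1 (BCL-XL) and Mcl1, naive and memory cells lean on Bcl2, and Bcl2l11 (BIM) is a main driver of the death of activated cells when growth factors run out.

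The libraries differed in depth. Replicate 1 held 4742025 counts, replicate 3 held 3543816 and replicate 2 held 50627, so that a count of 0 in replicate 2 allowed up to 59.3 CPM (counts scaled to the library total), taking 3 counts as the limit. Intervals given here are exact 95% intervals that cover counting error only. Genes that share exonic positions with a gene on the other strand, 8189 of the 50600, took 52.7%, 57.8% and 72.2% of the counts of replicates 1, 2 and 3. The larger share in replicate 3 leaves a smaller share for the other genes in any unit scaled to the library. Since the counting used a strand setting whose match to the library kit is not given in the sources used here, all levels are those assigned to the annotated strand by that setting. The match was not tested, and without it a level need not be that of the gene's own transcript. The cells carried T cell RNA: 10 of 10 T cell markers and 4 of 5 Th1 markers reached 1 TPM (counts per exonic length, scaled to their sum) in replicates 1 and 3, the exception being Cxcr3. Cd8b1 had 21, 1 and 13 counts in replicates 1, 2 and 3, and Cd8a, Ms4a1, Pax5, Lyz2, Itgam, Adgre1 and the 3 erythroid markers had no count. Of the B cell markers, Cd79a had 10, 0 and 22 counts and Cd79b 1, 0 and 2, and the myeloid marker Cd68 had 12, 0 and 5. Summed markers ranged from 0 to 8.37 TPM for B cells and from 84.5 to 169 TPM for myeloid cells, and the latter was nearly all Csf1r, 17.8% of whose exonic length lies under opposite-strand exons. The part of other cells in the levels below was not tested.

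Members of all 3 classes carry a short helix, the BH3 motif, which takes part in the binding between members. Its core begins with a leucine codon and ends, 3 codons later, with a glycine codon and an aspartate codon. The coding stretches that encode it are shown because all 3 classes carry it. They were read from the longest principal coding sequence of each gene in GENCODE M21 (mm10), with 15 bases on each side of the 18-base core, 5′ to 3′, and the capitals mark the core. None is shown for Pmaip1.
Bcl2: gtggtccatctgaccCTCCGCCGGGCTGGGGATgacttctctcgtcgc
Bcl2l1: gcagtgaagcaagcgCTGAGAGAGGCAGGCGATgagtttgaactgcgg
Mcl1: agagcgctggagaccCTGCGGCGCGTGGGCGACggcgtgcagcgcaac
Bax: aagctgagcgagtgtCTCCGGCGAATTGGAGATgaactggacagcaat
Bak1: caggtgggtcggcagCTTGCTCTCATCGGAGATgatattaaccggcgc
Bcl2l11: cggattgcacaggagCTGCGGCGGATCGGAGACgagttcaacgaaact
Bid: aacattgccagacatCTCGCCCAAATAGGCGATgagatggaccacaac
Bad: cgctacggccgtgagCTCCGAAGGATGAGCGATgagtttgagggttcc
Bbc3: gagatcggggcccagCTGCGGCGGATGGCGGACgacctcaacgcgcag

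On mm10 these stretches lie at chr1:106712569-106712616 (minus strand, exon 1 of Bcl2), chr2:152829691-152829738 (minus, exon 2 of Bcl2l1), chr3:95659421-95659468 (plus, exon 1 of Mcl1), chr7:45465991-45466038 (minus, exon 3 of Bax) and chr17:27022525-27022572 (minus, exon 4 of Bak1). Those of the BH3-only genes lie at chr2:128147135-128147182 (plus, exon 3 of Bcl2l11), chr6:120897283-120897330 (minus, exon 4 of Bid), chr19:6950777-6950824 (plus, exon 3 of Bad) and chr7:16313758-16313805 (plus, exon 3 of Bbc3). The search was in frame and on the coding strand, for a CTN codon, any 3 codons, a GGN codon and a codon for aspartate or glutamate. Of the 9 genes shown, 7 matched; in Bad the GGN codon is replaced by AGN and in Bbc3 by GCN. Mcl1, Bak1 and Bbc3 each held a further match to the AG form, outside the stretch shown. Such matches are common by themselves: 20.9%, 20.1% and 23.4% of 21581 principal coding sequences held the GG, AG and GC forms. Of the 18 bases of the core, Bcl2l11 and Bbc3 had 15 in common, the most of any pair shown, and Bcl2l1 and Bak1 had 7, the fewest. Mcl1 and Bcl2l11, of different classes, had 14 in common, and Bcl2 and Bcl2l1, of 1 class, had 11. The search itself fixed the CT and GA bases of every core shown, and the GG bases of 7 of them. Part of each number was therefore set in advance, and the match expected between unrelated genes was not tested.

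Among the anti-apoptotic genes, Bcl2l1 and Mcl1 stood well above Bcl2 in both deep libraries. Bcl2l1 (chromosome 2, 152780668 to 152831728, minus strand), which encodes BCL-XL, had 1185, 3 and 468 counts in replicates 1, 2 and 3, a level of 121, 27.0 and 51.8 TPM. Mcl1 (chromosome 3, 95658788 to 95663176, plus strand), the short-lived survival factor that binds BIM and NOXA, had 781, 14 and 297 counts, a level of 107, 169 and 44.1 TPM. Bcl2 (chromosome 1, 106538178 to 106714274, minus strand), the family's founding gene, had 162, 1 and 80 counts, a level of 8.26, 4.51 and 4.43 TPM. It was the lowest of the anti-apoptotic genes in 3 of 3 libraries and made up 3.51%, 2.25% and 4.42% of their summed TPM.

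The Bcl2l1 level was 14.6-fold that of Bcl2 in replicate 1 (95% interval 12.4 to 17.3) and 11.7-fold in replicate 3 (9.20 to 14.999). In replicate 2, with 3 and 1 counts, the ratio was 5.99 (0.481 to 314), which does not separate them. Mcl1 was 12.9-fold above Bcl2 in replicate 1 (10.9 to 15.4), 37.5-fold in replicate 2 (5.71 to 1586) and 9.95-fold in replicate 3 (7.75 to 12.9). The mean log2 ratios over the 3 libraries were 3.33 ± 0.67 for Bcl2l1 to Bcl2 and 4.08 ± 1.01 for Mcl1 to Bcl2 (SD, n = 3). An exact two-sided sign-flip permutation test gave p = 0.25 for each, the smallest that 3 libraries allow, and 0.83 after Benjamini-Hochberg adjustment over the 10 ratios tested.

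Bcl2l1 and Mcl1 were close to each other, and their order differed between libraries. Bcl2l1 was 1.13-fold above Mcl1 in replicate 1 and 1.17-fold in replicate 3; the inverse ratios, Mcl1 to Bcl2l1, had intervals of 0.807 to 0.969 and 0.734 to 0.987, so both just excluded equality. In replicate 2, on 14 and 3 counts, Mcl1 was 6.26-fold above (1.75 to 34.0). The mean log2 ratio of Mcl1 to Bcl2l1 was therefore 0.75 ± 1.65 (SD, n = 3; exact sign-flip p = 1), and it was -0.20 without replicate 2. With the longest annotated transcript as the length (2568 in place of 4586 bp for Bcl2l1) it was -0.091.

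In TPM of replicates 1 and 3 the effector genes lay between Bcl2 and the Bcl2l1 and Mcl1 pair, and in no library were they separated from each other. Bax (chromosome 7, 45461697 to 45466898, minus strand), a largely cytosolic protein that moves to mitochondria, had 245, 5 and 77 counts, a level of 72.6, 131 and 24.8 TPM. Bak1 (chromosome 17, 27019810 to 27029009, minus strand), its membrane-resident counterpart, had 332, 7 and 144 counts, a level of 64.4, 120 and 30.4 TPM. Bax was slightly higher in replicates 1 and 2 and Bak1 in replicate 3, and the interval of their ratio included equality in each: 0.952 to 1.33, 0.273 to 3.99 and 0.611 to 1.08. In replicate 2 both stood above Bcl2l1, on few counts: the log2 ratio of Bcl2l1 was -2.15 (-4.74 to -0.021) to Bak1 and -2.28 (-4.96 to 0.084) to Bax. The mean log2 ratio of Bax to Bak1 was 0.0020 ± 0.26 (SD, n = 3; exact sign-flip p = 1).

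The BH3-only genes spread over a wide range, with Bid highest and Bcl2l11 at or near the bottom. Bid (chromosome 6, 120891930 to 120916853, minus strand), which caspase-8 cleaves to link death receptors to mitochondria, had 279, 9 and 246 counts, a level of 36.7, 105 and 35.2 TPM. Bad (chromosome 19, 6941861 to 6951898, plus strand), which survival kinases hold inactive by phosphorylation, had 99, 5 and 80 counts, a level of 23.0, 103 and 20.2 TPM. In TPM both were slightly lower in replicate 3 than in replicate 1, and each of the other 8 members was lower by a larger factor. Lower TPM in replicate 3 was found for 77.7% of all genes with 50 counts or more over both libraries. Among those without opposite-strand exons it was 96.3%.

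Bbc3 (chromosome 7, 16308393 to 16318205, plus strand), the p53 target PUMA, had 91, 3 and 42 counts, a level of 20.0, 58.3 and 10.03 TPM. Pmaip1 (chromosome 18, 66458604 to 66465550, plus strand), which encodes NOXA, the selective partner of MCL-1, had 53, 2 and 11 counts, a level of 9.36, 31.2 and 2.11 TPM. Bcl2l11 (chromosome 2, 128126038 to 128162547, plus strand), which encodes BIM, had 73, 0 and 42 counts, a level of 4.25, 0 and 2.65 TPM. It was the lowest member in replicate 1 and the second lowest in replicate 3, and its 0 counts in replicate 2 allowed up to 15.4 TPM.

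In both deep libraries Bcl2l11 lay below Bid, Bad and Bbc3, with intervals that excluded equality. Against Bbc3 this rested on the division by exonic length, 8029 bp for Bcl2l11 and 2124 bp for Bbc3. The counts of these 2 genes were 73 and 91 in replicate 1 and 42 each in replicate 3. The gap to Bad, with 2007 bp and 99 and 80 counts in replicates 1 and 3, also depended largely on length. Its mean log2 ratio to Bcl2l11 was 2.68, and 0.68 in CPM with no division by length. Bad was 5.43-fold above Bcl2l11 in replicate 1 (3.97 to 7.44) and 7.62-fold in replicate 3 (5.18 to 11.3). In replicate 2, where Bcl2l11 had no count, the interval of that ratio started at 3.67-fold. Bid was 8.64-fold above it in replicate 1 and 13.2-fold in replicate 3. Bcl2, the anti-apoptotic gene nearest to it, was 1.95-fold above it in replicate 1 (1.47 to 2.60) and 1.67-fold in replicate 3 (1.14 to 2.49), with a mean log2 ratio of 0.85 ± 0.16 (SD, n = 2; exact sign-flip p = 0.50, the smallest that 2 libraries allow). Mcl1 exceeded Bcl2l11 25.1-fold in replicate 1 and 16.6-fold in replicate 3, and in replicate 2 the interval started at 7.79-fold. Its ratio to Pmaip1, the gene of its selective antagonist, was 11.4 (8.63 to 15.4), 5.42 (1.24 to 49.1) and 20.9 (11.5 to 42.3) in replicates 1, 2 and 3, a mean log2 ratio of 3.45 ± 0.98 (SD, n = 3; exact sign-flip p = 0.25).

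**Figure D1:**
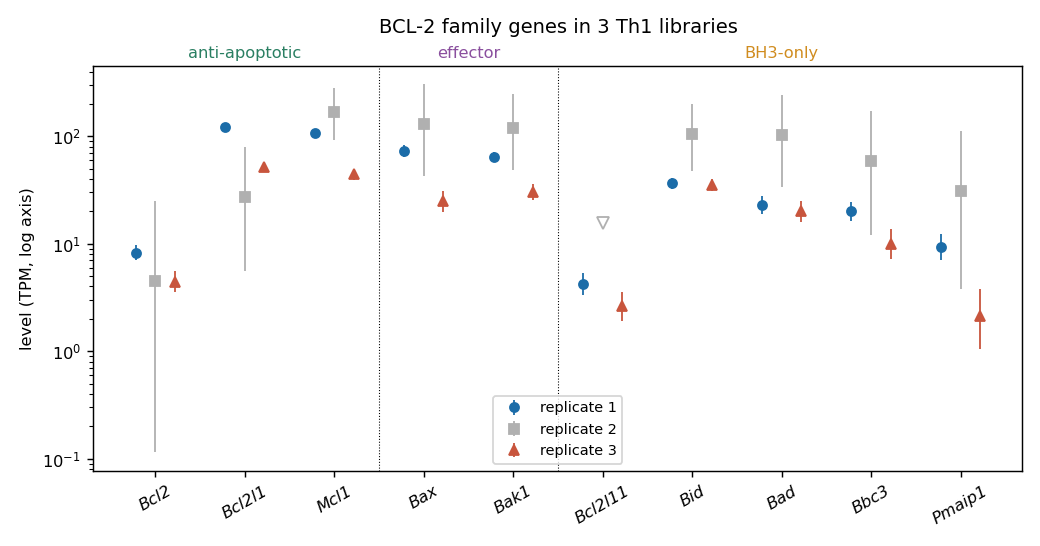
Level of each BCL-2 family gene in TPM (log axis) in the 3 Th1 libraries, with exact 95% counting intervals; the open triangle marks the level that a count of 0 allows for Bcl2l11 in replicate 2. Bcl2, Bcl2l11 and Pmaip1 lie below 10 TPM in replicates 1 and 3, where Bcl2l1 and Mcl1 lead, and the intervals of replicate 2 are wide because it holds few counts. TPM divides by exonic length, and in counts Bcl2 exceeded Bbc3 and Pmaip1 in replicates 1 and 3.

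In replicate 1 the members fell in the order Bcl2l1, Mcl1, Bax, Bak1, Bid, Bad, Bbc3, Pmaip1, Bcl2 and Bcl2l11, and counting error did not separate Bax from Bak1, Bad from Bbc3 or Pmaip1 from Bcl2. In replicate 3 the order was Bcl2l1, Mcl1, Bid, Bak1, Bax, Bad, Bbc3, Bcl2, Bcl2l11 and Pmaip1, and counting error did not separate Bid from Bak1, Bak1 from Bax, Bax from Bad or Bcl2l11 from Pmaip1. No neighbours were separated in replicate 2. These orders are in TPM and rest partly on exonic length, which is 9157 bp for Bcl2. In counts of replicates 1 and 3, Bcl2 (162 and 80) was above Bbc3 (91 and 42) and Pmaip1 (53 and 11). It was above Bad (99) in replicate 1 and equal to it in replicate 3. Against Bax (245 and 77) it was lower in replicate 1 and slightly higher in replicate 3, and it was below Bid (279 and 246) in both. Of the 45 pairs of members, 42 had an interval that excluded equality in replicate 1, 41 in replicate 3 and 15 in replicate 2; 38 lay on the same side in replicates 1 and 3. The exception with opposite sides was Bax against Bid, with Bax 1.98-fold above in replicate 1 (1.66 to 2.36) and Bid 1.42-fold above in replicate 3. In all, 10 of 10 members reached 1 TPM in replicates 1 and 3, against 24.2% of all genes. In replicate 2, where 1 count of a member is worth more than 1 TPM, 9 of 10 had a count, against 15.3% of all genes, and Bcl2 and Pmaip1 had fewer than 3.

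Summed by class, the anti-apoptotic genes were the largest class in the deep libraries and the smallest in replicate 2. Their summed level was 236, 201 and 100.3 TPM in replicates 1, 2 and 3, that of the effectors 137, 251 and 55.1 TPM, and that of the BH3-only genes 93.4, 297 and 70.2 TPM. As shares of the 10 genes, the anti-apoptotic class held 50.6%, 26.8% and 44.5%, the effectors 29.4%, 33.5% and 24.4%, and the BH3-only class 20.0%, 39.7% and 31.1%. The shares of replicate 2 rest on 18, 12 and 19 counts.

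The ratio of summed anti-apoptotic to effector level was 1.72, 0.799 and 1.82 in replicates 1, 2 and 3, which averages 0.44 ± 0.66 on the log2 scale (SD, n = 3; exact sign-flip p = 0.50). That of anti-apoptotic to BH3-only level was 2.52, 0.675 and 1.43, an average of 0.43 ± 0.95 on the log2 scale (exact sign-flip p = 0.75). Effectors to BH3-only genes gave 1.47, 0.845 and 0.786, an average of -0.012 ± 0.49 (exact sign-flip p = 1). None of the 3 class ratios exceeded the spread between libraries. Without replicate 2 the first 2 means rose to 0.82 and 0.93 and the third was 0.10; without replicate 1 the anti-apoptotic to BH3-only ratio turned to -0.026.

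**Figure D2:**
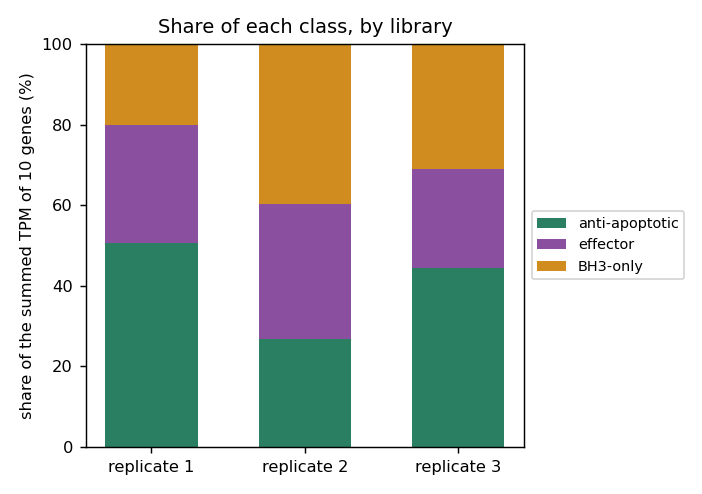
Share of the summed TPM of the 10 genes held by each class, in percent, by library. The anti-apoptotic share was 50.6% in replicate 1 and 44.5% in replicate 3 but 26.8% in the shallow replicate 2, and the BH3-only share was 20.0%, 31.1% and 39.7% in the same libraries.

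Of the members, 4 share exonic positions with an annotated gene of the other strand and 6 share none. Bcl2 has 6.09% of its exonic length under D630008O14Rik, a gene on the plus strand within its span that had 472, 9 and 629 counts in replicates 1, 2 and 3. That is 230 and 306 counts per kb in replicates 1 and 3, against 17.7 and 8.74 for Bcl2. Bak1 has 14.8% under Ggnbp1, whose annotated span encloses it and which had 2291, 17 and 2847 counts. Per kb, Ggnbp1 had 330 and 410 counts in replicates 1 and 3, against 138 and 59.8 for Bak1.

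Bid has 17.7% of its exonic length under the end of Bcl2l13, itself a distant relative of the family, which runs towards it and had 231, 1 and 99 counts. Bad has 25.8% under Gpr137, which starts within the Bad gene and runs away from it, with 72, 1 and 77 counts. Both partners had fewer counts per kb than the member in all 3 libraries. On its own strand, Bax shares 192 bp with Gm45808, which had no count; the recorded command did not allow fragments that fall on exons of 2 genes to be counted.

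Class ratios among members without such overlap moved in favour of the anti-apoptotic genes. Bcl2l1 and Mcl1 together stood 3.13-, 1.497- and 3.87-fold above Bax in replicates 1, 2 and 3, and 6.77-, 2.19- and 6.48-fold above the sum of Bcl2l11, Bbc3 and Pmaip1. Bax stood 2.16-, 1.46- and 1.68-fold above that sum. These restricted classes leave out Bak1, which held 47.0%, 47.8% and 55.0% of the summed effector TPM in replicates 1, 2 and 3. They also leave out Bid and Bad, the highest BH3-only genes in both deep libraries. Of the anti-apoptotic class they drop only Bcl2, with 3.51%, 2.25% and 4.42% of its summed TPM. The composition of the classes thus differs as well as their overlap.

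Between the libraries, 7 of the 9 members that passed the filter on low counts varied beyond counting error, and so did 63.2% of all 7406 genes tested, a background that so short a list cannot be set apart from. The test was a chi-square test of counts against TMM-scaled totals with Benjamini-Hochberg adjustment over all genes tested. Bcl2l1 had an adjusted p of 2.02e-09 (2.37e-33 to 0.409 over the alternatives), Bid 4.37e-08 (7.72e-18 to 0.351) and Mcl1 3.39e-07 (1.54e-24 to 0.586). Bax, Bad, Pmaip1 and Bak1 had adjusted p-values of 8.46e-05, 0.000712, 0.00245 and 0.0252. Bcl2 (0.679) and Bbc3 (0.137) did not pass, and Bcl2l11 was not tested for want of counts in replicate 2.

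Which members varied depended on the scaling and on the library. With TMM factors from genes without opposite-strand exons, 4 of 9 members varied against 39.0% of all genes: Bid, Bad, Bcl2l1 and Pmaip1. With library totals in place of TMM-scaled totals, 9 of 9 varied, Bcl2 (adjusted p = 0.00717) and Bbc3 (0.00262) included, against 88.5% of genes. Without replicate 2, 6 of 10 did, against 37.9% of genes. Both pairs that hold the shallow library gave few calls at all: without replicate 1 only Mcl1 of 8 members tested varied, against 9.47% of genes, and without replicate 3 only Bad of 9, against 3.65%. With replicates 1 and 3 and the restricted scaling, a setting chosen after seeing the data, Bid and Bad varied, with adjusted p-values of 4.1e-17 and 4.47e-05; these are 2 of 10 members, against 34.2% of genes.

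Between the deep libraries, Bid and Bad had the highest ratios of the members. Their log2 ratios of CPM, replicate 3 to replicate 1, were 0.24 (-0.015 to 0.49) and 0.11 (-0.33 to 0.55), while those of the other 8 members ran from -1.85 to -0.38. Among genes with 50 counts or more in replicates 1 and 3 together, 5857 had no opposite-strand exon, and their median ratio was -0.84 with quartiles of -1.04 and -0.64. For the other 4162 genes it was 0.22 with quartiles of -0.74 and 0.77. Lower CPM in replicate 3 was found for 8 of 10 members and for 74.7% of all 10019 such genes.

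Relative to the median of genes without overlap, Bid stood 1.08 higher (0.83 to 1.34) and Bad 0.96 higher (0.51 to 1.397) on the log2 scale. Bcl2l1 and Mcl1 differed from that median by -0.076 (-0.23 to 0.080) and -0.13 (-0.33 to 0.064). Bcl2 (0.25), Bak1 (0.059), Bcl2l11 (0.47) and Bbc3 (0.15) also had intervals that included the median. Bax was 0.41 below it (interval -0.79 to -0.030) and Pmaip1 1.00 below it (-2.09 to -0.050), neither with opposite-strand exons. Under opposite-strand exons lay 25.8% of the exonic length of Bad, 17.7% of Bid, 14.8% of Bak1 and 6.09% of Bcl2. Genes with such exons had quartiles of -0.74 and 0.77 in the log2 ratio of CPM, before any median was subtracted. On that scale Bad (0.11), Bid (0.24) and Bcl2 (-0.60) lay within these quartiles and Bak1 (-0.78) just below them. The part of the overlap in these ratios was not tested.

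**Figure D3:**
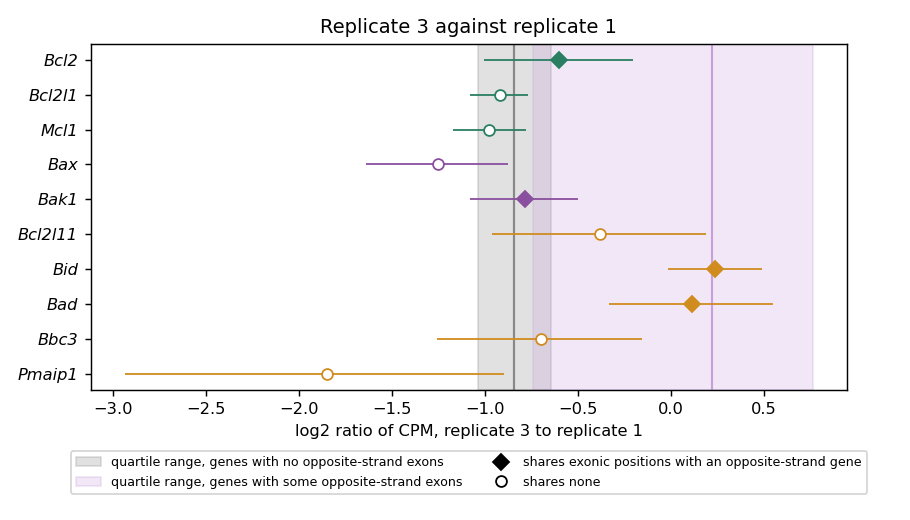
Log2 ratio of CPM, replicate 3 to replicate 1, for each member with its exact 95% counting interval; filled diamonds are members partly under opposite-strand exons and open circles are not. Shaded bands are the quartile ranges and vertical lines the medians of genes without (-0.84) and with (0.22) such exons, and Bid and Bad are the members to the right of 0.

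Outside the 10 members, the wider family added anti-apoptotic level and little else. Bcl2a1b and Bcl2a1d, which encode copies of A1, a survival protein induced by NF-kappaB, had 125, 0 and 35 and 138, 0 and 46 counts, a level of 71.5 and 74.7 TPM in replicate 1 and 21.7 and 27.0 TPM in replicate 3. The A1 copies are nearly identical in sequence, so fragments cannot be split between them with certainty; Bcl2a1a had no count. Bcl2l2, which encodes BCL-W, had 65, 0 and 20 counts, a level of 6.80 and 2.27 TPM in replicates 1 and 3, and Bcl2l10 had none. On the same strand, other genes share 401 of the 817 exonic bp of Bcl2a1b and 594 of the 4462 bp of Bcl2l2. Fragments that fall on exons of 2 genes were not counted there. Of the pore-forming and BH3-only relatives, Bok had 3, 0 and 2 counts, Bmf 2, 0 and 5, Bik 1, 0 and 1, and Hrk none. With these genes included, the ratio of anti-apoptotic to effector level was 2.82 in replicate 1 and 2.72 in replicate 3, and that of anti-apoptotic to BH3-only level 4.13 and 2.13. In replicate 2 none of them had a count.

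Downstream of the family, 6 of 7 genes of the apoptosome and caspase list reached 1 TPM in replicates 1 and 3. Cycs, the gene of cytochrome c, led at 139, 109 and 54.3 TPM. Casp2, an initiator protease, was lower at 9.73, 5.85 and 3.88 TPM, with 1 count in replicate 2. Of this list, 2 of 4 genes tested varied between libraries, against 63.2% of all genes, and 1 of 6 without replicate 2, against 37.9%.

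All 7 inhibitors of apoptosis and their antagonists reached 1 TPM in replicates 1 and 3 and had at least 1 count in replicate 2. Htra2, a mitochondrial protease that antagonises the inhibitors, stood at 372, 182 and 459 TPM, and 43.7% of its exonic length lies under opposite-strand exons. Birc5, the gene of survivin, which also acts in mitosis, stood at 55.6, 48.5 and 18.5 TPM. Birc3 (23.3, 8.24 and 9.72 TPM) and Birc2 (14.99, 9.01 and 4.98 TPM), which encode the ubiquitin ligases cIAP2 and cIAP1, had 1 count each in replicate 2. In this list 6 of 7 genes tested varied, and 3 of 7 without replicate 2, where the shares of all genes were 63.2% and 37.9%.

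The death receptor arm meets the family at Bid, and its 7 genes all reached 1 TPM in replicates 1 and 3, while 5 of them had a count in replicate 2. Casp8, the protease that cleaves BID, stood at 76.4, 57.1 and 28.2 TPM. Fas and its ligand Fasl stood at 29.6, 22.9 and 15.8 TPM and at 19.0, 42.6 and 10.5 TPM, and Cflar, the inhibitor of caspase-8 activation, at 16.5, 13.04 and 7.81 TPM; these 4 genes had 1 to 4 counts in replicate 2. Here 2 of 5 genes tested varied (63.2% of all genes), and 1 of 7 without replicate 2 (37.9% of all genes).

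Of the regulators of family genes and proteins, 9 of 9 reached 1 TPM in replicates 1 and 3 and had at least 1 count in replicate 2. Vdac2, a mitochondrial channel that binds BAK, stood at 89.4, 142 and 36.3 TPM, Mdm2, a p53 target and its ligase, at 54.7, 32.5 and 23.9 TPM, Bag6 at 51.2, 19.9 and 25.2 TPM, and Trp53, the gene of p53, at 39.0, 30.6 and 20.6 TPM. In this list 7 of 9 genes varied, and 1 of 9 without replicate 2, against 63.2% and 37.9% of all genes. A lower TPM in replicate 3 than in replicate 1, seen for all named genes of these lists but Htra2, was general: 77.7% of genes with 50 counts or more in both together had it, and 96.3% of those without opposite-strand exons.

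**Figure D4:**
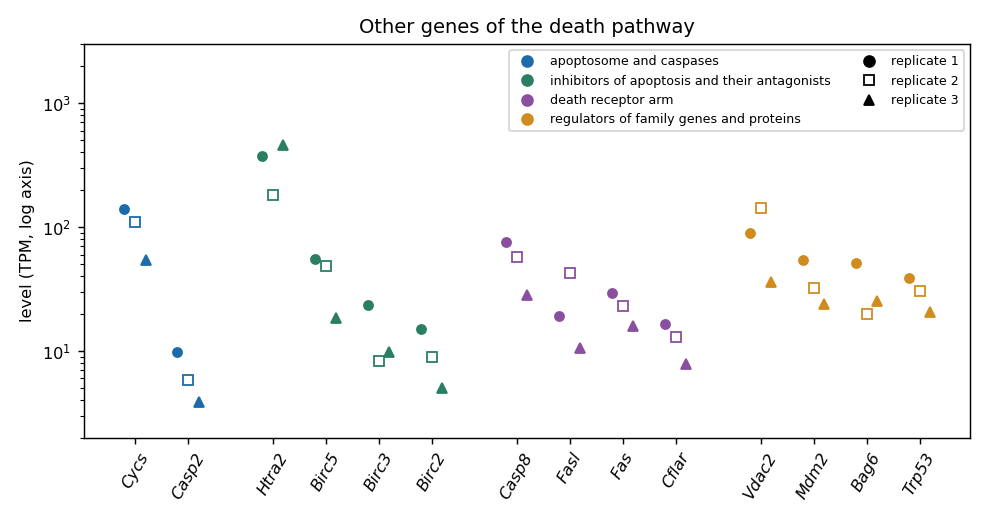
Level in TPM (log axis) of the named genes of each pathway list, by library (circle, replicate 1; open square, replicate 2; triangle, replicate 3). Every gene shown except Htra2 is lower in replicate 3 than in replicate 1, as are 77.7% of genes with 50 counts or more, and Htra2, at 372 and 459 TPM, has 43.7% of its exonic length under opposite-strand exons.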

How the data were processed

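Per the file headers, the authors counted fragments per gene with featureCounts 1.4.6-p4 and deposited the raw counts (read pairs with both ends mapped, exons summed by gene, strand setting 1) on GENCODE M13; mm10 is the assembly named in the labels. The library kit is not given in the sources used here. The deposited tables also give each gene's exonic length, another value, from which TPM was computed. Symbols matched for 50376 of 50600 genes. Overlap was found with bedtools 2.31.1. TMM factors and the filter (filterByExpr) came from edgeR 4.0.16 and alternative size factors from DESeq2 1.42.0. With 1 group, edgeR's quasi-likelihood test had no contrast. The chi-square test (2 degrees of freedom) was tested on simulated data and is rough where replicate 2 gives small expected counts. Ratio intervals are conditional Clopper-Pearson intervals. A count of 0 was taken to allow up to 3 counts.

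The members and lists were chosen with earlier results of these data known. Named were all members, their wider family, overlap partners and the 4 highest genes of each pathway list by mean TPM; a few listed genes are not reported here. Patterns over 3 libraries were not compared. Read alignments and signal tracks were not used. R 4.3.3 and Python 3.11.15 were used.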

Additional observations from a re-analysis of the deposited data

How the results depend on the processing

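Of 64 alternative values of the 10 log2 ratios, 53 kept their direction; the ratios of Mcl1 and Bcl2l1 to Bcl2, of Mcl1 to Pmaip1, of Bcl2 to Bcl2l11 and of Bad to Bcl2l11 did so under all alternatives run. Both ratios to Bcl2l11 have no value in replicate 2, so leaving it out gave no alternative. Sizes moved more than directions: in CPM with no division by length, Mcl1 to Bcl2 was 2.66 in place of 4.08, Bcl2l1 to Bcl2 2.33 in place of 3.33, Bad to Bcl2l11 0.68 in place of 2.68 and anti-apoptotic to effector genes 1.47 in place of 0.44. Adding 0.5 counts gave 3.61 for Bad to Bcl2l11. Among members without opposite-strand exons, anti-apoptotic genes stood at 1.39 to effectors and 2.20 to BH3-only genes, the latter 1.15 with class medians. With class medians in place of sums, the anti-apoptotic to effector ratio was -0.30 and the effector to BH3-only ratio 1.45. The latter was 0.80 among members without opposite-strand exons, and -0.30 to 0.16 when each replicate was left out in turn. Leaving out each replicate gave -0.026 to 0.93 for anti-apoptotic to BH3-only genes, -0.20 to 1.23 for Mcl1 to Bcl2l1 and -0.083 to 0.15 for Bax to Bak1. Bax to Bak1 was -0.61 in CPM with no division by length, and Mcl1 to Bcl2l1 was -0.091 with the longest transcript as length. The number of varying members, 7 of 9 tested, was 9 of 9 with library totals and 4 of 9 with TMM factors from genes without opposite-strand exons. With these factors and without replicate 2 it was 2 of 10. With each replicate left out it was 1 to 6, of 8 to 10 tested. Over all genes tested it was 4681 (63.2%), then 6555 (88.5%), 2886 (39.0%), 3758 (34.2%) and 271 (3.65%) to 4167 (37.9%). Apart from what the settings themselves change (genes, lengths or libraries used), the cause was not tested. No paired analysis was possible because there is 1 group. Depth limits every value of replicate 2, where the members had 0 to 14 counts each.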
